A study of Mus musculus with 8 samples.

Results

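The genes described here are 10 transcription factor genes of the intestinal secretory lineage and of intestinal identity, namely Atoh1, Gfi1, Spdef, Sox9, Bhlha15, Nupr1, Tcf7l2, Cdx2, Klf4 and Foxa2. They were taken by name, as factors known from textbook biology, out of a table with 55414 gene identifiers, and each name was matched to its identifier in GENCODE M39. Earlier results of these data were known when they were chosen. The table counts RNA-seq reads per gene in Paneth cells collected by FACS, 1 library for every mouse. All 8 mice were C57BL/6J, without any transgene or mutation, and no agent other than the food was given. For 7 weeks, 4 of them had free access to standard chow (control diet) and 4 to zinc depleted chow (zinc deficient diet). Age and sex are not given in the labels, and the labels call the 4 samples of a diet biological replicates.

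Epithelial cells of the crypt choose between absorptive and secretory fates. Notch signalling represses Atoh1, a basic helix-loop-helix activator without which Paneth, goblet and enteroendocrine cells do not form, and cells that escape this repression express Atoh1 and enter the secretory lineage. Downstream of Atoh1, Gfi1 represses enteroendocrine genes and so favours Paneth and goblet cells, while Spdef drives the maturation of both. Sox9 is a target of Wnt signalling that is required for Paneth cells to form, and Tcf7l2 encodes TCF4, the DNA-binding partner through which beta-catenin turns on Wnt target genes. Bhlha15 encodes MIST1, which scales up the secretory apparatus. Nupr1 encodes a small chromatin-associated protein that is induced by amino acid shortage and endoplasmic reticulum stress. Cdx2 sets intestinal identity, Klf4 promotes differentiation and exit from the cell cycle, above all in goblet cells, and Foxa2 is a pioneer factor of endoderm.

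Values are given as CPM, the counts of a gene per 1000000 counts of a library, after TMM scaling, a method that sets the libraries to a common level for the bulk of the genes instead of the total count. Library totals ranged from 8557690 to 12648005 counts. Control mouse 1 stood apart, with a TMM factor of 1.57, while those of the other mice lay between 0.719 and 1.16. The 7 Paneth cell markers took 46.2% of the counts of that mouse and 52.2% to 60.8% elsewhere, so the markers of the labelled cell type were high in each library. After TMM scaling all 7 were fitted higher on the zinc deficient diet, with a median log2 fold change of 0.46, and 5 of the 7 with library totals. Of the 7, 0 were called by edgeR, 2 had an unadjusted p under 0.05 and 1 was called by DESeq2. The values of the diets did not overlap for Ang4 and Mptx2, both higher, as for 2.3% of all genes, and Mptx2 had the larger log2 fold change of 1.45 (adjusted p = 0.0712, edgeR). Their part in the values of the factors was not tested. Markers of stromal and vessel cells and of erythroid cells were at or near 0, with 0 of 5 genes tested in each list. On totals alone, the median gene was lower on the zinc deficient diet by a log2 fold change of -0.37, against -0.0052 after TMM scaling, so directions below are relative to the bulk of the genes and depend on this scaling. All 10 factors passed the expression filter, as did 10911 genes in all.

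The stretches of 300 bases before the start of the canonical transcript are shown for the 3 factors on which the comparisons below turn most, Atoh1 and Spdef, whose values did not overlap between diets, and Cdx2, which ran opposite to Spdef across mice. They were read from GRCm39 at chr6:64705809-64706108 (plus strand) for Atoh1, chr17:27947930-27948229 (minus strand) for Spdef and chr5:147244092-147244391 (minus strand) for Cdx2, and are written along the strand of the gene. Capitals mark matches to the motifs described after them.
Atoh1: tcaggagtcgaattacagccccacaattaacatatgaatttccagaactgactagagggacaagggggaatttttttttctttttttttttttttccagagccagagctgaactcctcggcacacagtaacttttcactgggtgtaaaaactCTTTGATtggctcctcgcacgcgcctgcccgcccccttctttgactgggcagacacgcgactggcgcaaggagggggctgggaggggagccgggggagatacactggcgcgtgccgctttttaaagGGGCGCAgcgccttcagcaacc
Spdef: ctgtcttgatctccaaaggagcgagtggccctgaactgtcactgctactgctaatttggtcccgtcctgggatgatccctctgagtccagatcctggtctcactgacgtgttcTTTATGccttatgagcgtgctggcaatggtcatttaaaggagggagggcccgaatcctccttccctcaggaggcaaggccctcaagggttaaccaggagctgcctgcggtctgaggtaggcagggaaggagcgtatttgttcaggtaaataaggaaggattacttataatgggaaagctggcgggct
Cdx2: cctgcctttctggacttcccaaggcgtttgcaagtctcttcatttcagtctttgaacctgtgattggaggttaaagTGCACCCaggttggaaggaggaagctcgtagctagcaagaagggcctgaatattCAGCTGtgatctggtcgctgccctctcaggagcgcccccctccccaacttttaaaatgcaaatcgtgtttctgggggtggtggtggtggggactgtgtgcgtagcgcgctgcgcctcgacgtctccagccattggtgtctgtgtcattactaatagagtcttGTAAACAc

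Both strands were searched for 5 short motifs of factor families represented here or of the zinc sensor, without allowing mismatches. The CTTTGAT word bound by TCF factors was found before Atoh1, 148 bases from the start, and before 3.07% of the 10547 protein-coding genes tested. The CATAAA word of CDX factors was found before Spdef (187 bases from the start) and Tcf7l2, against 9.11% of all genes. The E-box CAGCTG was found before Cdx2 and Klf4, against 12.7%. The forkhead word TGTTTAC was found before Cdx2, in the last 8 bases ahead of the start, against 2.93% of all genes. The core of the metal response element, TGCGCNC or TGCACNC, was found before Atoh1 and Cdx2 and before 30.5% of all genes. No match overlapped another in the 3 stretches shown. A match is a match of letters and says nothing of binding. Base composition differed widely among the factors, with 42.3% G and C for Foxa2 and 75.0% for Klf4 around a median of 56.0% over all genes.

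None of the 10 factors passed the test between diets. Across the 10911 genes, 44 (0.403%) had an adjusted p under 0.05 in the quasi-likelihood test of edgeR, adjusted by the method of Benjamini and Hochberg, and 0 of the factors were among them. DESeq2 called 146 genes (1.34%) and likewise 0 factors. At an unadjusted p under 0.05, 2 factors remained in edgeR (Foxa2 and Nupr1), where 10.5% of all genes did, and 4 in DESeq2 (the same pair, Atoh1 and Spdef), where 10.6% of all genes did. The lowest adjusted p of any factor in the main fit or in 15 other settings was 0.142. A missed threshold does not show that the factors were equal between diets, and the intervals given below bound the differences that remain possible.

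**Figure D1:**
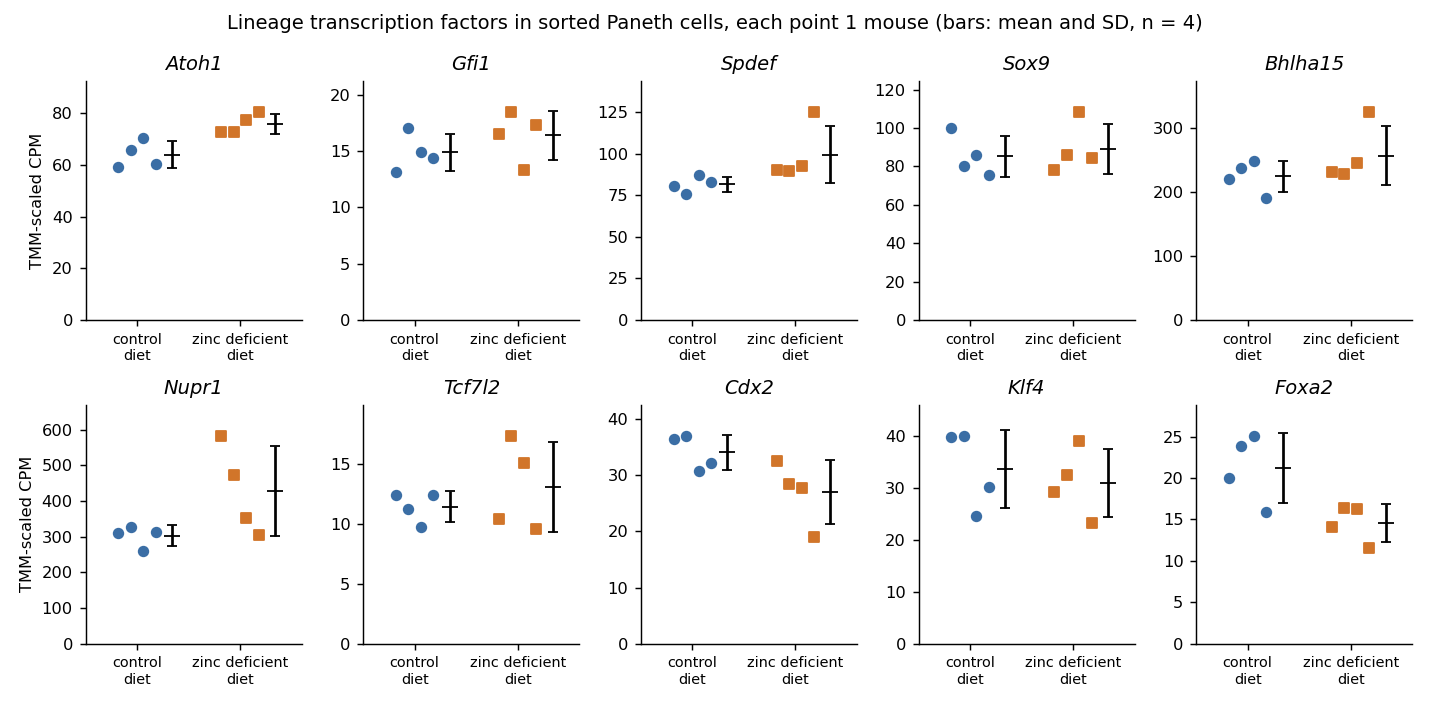
TMM-scaled CPM (vertical axes, each from 0) of the 10 factors in each of the 8 mice, with blue circles for the control diet, orange squares for the zinc deficient diet, and bars for the mean and SD of 4 mice. The squares of Atoh1 and Spdef all lie above the circles, while the diets overlap for the other 8 factors.

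The values of a diet did not overlap those of the other diet for 2 of the 10 factors, Atoh1 and Spdef, both higher on the zinc deficient diet. Of all genes tested, 6.09% did not overlap and 2.3% were higher without overlap. In total 7 factors were fitted higher and 3 lower, with a median log2 fold change of 0.16. Without control mouse 1, the same number was fitted higher and the median was 0.17. When libraries were scaled by their totals alone, the median of the factors was -0.21, only Nupr1 was fitted higher, and the diets overlapped for Atoh1 and Spdef as well.

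Atoh1 (ENSMUSG00000073043, chr6:64706109-64708229, plus strand), the factor that opens the secretory fate, is a gene of 1 exon, 2121 bases long. It had 59.3, 65.7, 70.3 and 60.1 TMM-scaled CPM in control mice 1 to 4, and 72.6, 72.7, 77.3 and 80.3 in zinc deficient mice 1 to 4. The lowest zinc deficient mouse thus lay above the highest control mouse. Means were 63.9 ± 5.18 and 75.8 ± 3.76 (SD, n = 4 each), a 1.19-fold difference with a 95% interval of 0.982 to 1.43. Its log2 fold change of 0.25 (standard error 0.13) had an unadjusted p of 0.073 and an adjusted p of 0.532 in edgeR, and it lay between 0.21 and 0.30 when any single mouse was left out. With library totals as the only scaling it was -0.10. Counts of 558 to 1099 per mouse stood behind these values. The 558 counts of control mouse 3, the fewest of any mouse, give 65.2 CPM by library size (exact Poisson interval 59.9 to 70.8). On that scale the control mice ranged from 56.9 to 92.9, and after TMM scaling from 59.3 to 70.3. For that mouse, counting error was thus not small beside the spread after TMM scaling.

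Gfi1 (ENSMUSG00000029275, chr5:107864523-107873902, minus strand), the zinc finger repressor that acts after Atoh1, was among the low factors, with 118 to 244 counts per mouse. Its values were 13.2, 17.0, 14.9 and 14.4 TMM-scaled CPM in the control mice and 16.5, 18.4, 13.3 and 17.3 in the zinc deficient mice. Both diets covered much the same range. A log2 fold change of 0.14 was fitted, with a 95% interval of -0.21 to 0.49 (adjusted p = 0.836, edgeR).

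Spdef (ENSMUSG00000024215, chr17:27933326-27947929, minus strand), an ETS family factor of Paneth and goblet cell maturation, had 80.8, 76.0, 87.1 and 83.1 TMM-scaled CPM in control mice 1 to 4. In zinc deficient mice 1 to 4 it had 90.4, 89.9, 92.5 and 125.1. Zinc deficient mouse 4 stood far above the other mice, and the remaining 3 lay just above the control range. Means were 81.8 ± 4.65 and 99.5 ± 17.1 (SD, n = 4 each), a 1.22-fold difference with a 95% interval of 0.986 to 1.5. As a log2 fold change this was 0.28 (standard error 0.15, unadjusted p = 0.0657, adjusted p = 0.513 in edgeR). It dropped to 0.16 without zinc deficient mouse 4 and was -0.073 with library totals as the only scaling. That mouse also had the highest summed level of the 7 goblet cell markers, 14220 TMM-scaled CPM, against 7588 to 10670 in the other zinc deficient mice and 4561 to 11180 in the control mice. The sum was carried by Spink4 (9171), Muc2 (2433) and Agr2 (1637). The other goblet cell markers were split in that mouse. Clca1 at 173.7 was the highest of the 8 mice, whereas Fcgbp at 111.4 was the lowest and Tff3 at 691.8 the lowest of its diet. Zg16 was near the floor, with 0.374 from 4 counts, beside 0.379 from 3 counts in zinc deficient mouse 2. All 7 goblet cell markers passed the expression filter, and their part in the Spdef value was not tested. In bulk samples such as these, fewer cells of a type and less RNA per cell cannot be told apart.

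Sox9 (ENSMUSG00000000567, chr11:112673009-112678586, plus strand), the HMG box factor on which Paneth cell formation depends, had 99.99, 80.1, 85.7 and 75.4 TMM-scaled CPM in the control mice and 77.9, 85.9, 108.2 and 84.2 in the zinc deficient mice. Control mouse 1 and zinc deficient mouse 3 were the highest, and the 6 other mice were intermingled. Its log2 fold change was 0.06 with a 95% interval of -0.25 to 0.37 (adjusted p = 0.929, edgeR), and it was -0.041 without zinc deficient mouse 3 and -0.31 with library totals only. Of the factors, Sox9 had the fitted difference closest to 0. Zinc deficient mouse 3 was also the mouse with the highest summed level of the 5 tuft cell markers, 350.4 TMM-scaled CPM against 19.2 to 89.5 in the 7 others, and the part of tuft cells in its Sox9 value was not tested.

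Bhlha15 (ENSMUSG00000052271, chr5:144127086-144131259, plus strand), which encodes MIST1, a helix-loop-helix factor of cells with heavy secretory traffic, had 220.6, 237.0, 247.5 and 190.5 TMM-scaled CPM in the control mice. It had 230.2, 227.3, 244.3 and 324.1 in the zinc deficient mice. As for Spdef, zinc deficient mouse 4 was the highest, and the other 3 lay within the control range. Bhlha15 had a log2 fold change of 0.20 with a 95% interval of -0.15 to 0.54 (adjusted p = 0.742, edgeR), and it was -0.17 with library totals only. The gene overlaps Tecpr1 on the opposite strand, which had 2710 counts over the 8 mice against 21207 for Bhlha15. Whether the counting used the strand is not given in the sources used here, so reads in the overlap could have been assigned to either gene.

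Nupr1 (ENSMUSG00000030717, chr7:126222414-126230033, minus strand), the stress-induced factor, had the largest fitted rise of the 10. It had 311.5, 328.4, 259.1 and 312.7 TMM-scaled CPM in control mice 1 to 4 and 582.3, 472.3, 351.1 and 304.1 in zinc deficient mice 1 to 4. Zinc deficient mice 1, 2 and 3 lay above every control mouse, whereas mouse 4 lay within the control range. Means were 302.9 ± 30.2 and 427.5 ± 125.2 (SD, n = 4 each), with an SD on the zinc deficient diet about as large as the difference between the means. The fold of 1.41 had a 95% interval of 1.06 to 1.89, and the log2 fold change of 0.50 (standard error 0.20) had an unadjusted p of 0.0228 and an adjusted p of 0.370 in edgeR. It ranged from 0.31 without zinc deficient mouse 1 to 0.63 without zinc deficient mouse 4, and it was 0.12 with library totals only, where it kept its sign.

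Tcf7l2 (ENSMUSG00000024985, chr19:55730188-55922091, plus strand), the TCF factor of the Wnt pathway, was the lowest of the 10, with 77 to 229 counts per mouse. Its values were 12.4, 11.2, 9.71 and 12.4 TMM-scaled CPM in the control mice and 10.4, 17.3, 15.1 and 9.54 in the zinc deficient mice. The zinc deficient mice held both the highest values and the lowest. Between diets the log2 fold change was 0.19 with a 95% interval of -0.24 to 0.62 (adjusted p = 0.812, edgeR).

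Cdx2 (ENSMUSG00000029646, chr5:147237615-147244091, minus strand), the homeobox factor of intestinal identity, had 36.5, 37.0, 30.8 and 32.1 TMM-scaled CPM in control mice 1 to 4. It had 32.6, 28.4, 27.8 and 19.0 in zinc deficient mice 1 to 4. Zinc deficient mice 2, 3 and 4 lay below every control mouse, and mouse 1 lay within the control range. Means were 34.1 ± 3.11 and 26.9 ± 5.71 (SD, n = 4 each), a fold of 0.789 with a 95% interval of 0.621 to 1.0. The log2 fold change was -0.34 (standard error 0.16, unadjusted p = 0.0503, adjusted p = 0.477 in edgeR), and it was -0.20 without zinc deficient mouse 4 and -0.71 with library totals only.

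Klf4 (ENSMUSG00000003032, chr4:55527139-55532528, minus strand), the zinc finger factor of terminal differentiation, varied within both diets, with 39.9, 40.1, 24.7 and 30.3 TMM-scaled CPM in the control mice and 29.2, 32.5, 39.1 and 23.4 in the zinc deficient mice. The log2 fold change was -0.13 with a 95% interval of -0.51 to 0.26 (adjusted p = 0.878, edgeR). The ranges of the diets were almost the same.

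Foxa2 (ENSMUSG00000037025, chr2:147884797-147889005, minus strand), the forkhead pioneer factor, had the largest fitted fall of the 10. It had 19.95, 23.9, 25.1 and 15.9 TMM-scaled CPM in control mice 1 to 4 and 14.1, 16.4, 16.3 and 11.5 in zinc deficient mice 1 to 4. Control mouse 4 lay within the zinc deficient range and the other 3 control mice lay above it. Means were 21.2 ± 4.18 and 14.6 ± 2.30 (SD, n = 4 each), a fold of 0.688 with a 95% interval of 0.528 to 0.896. The log2 fold change was -0.54 (standard error 0.18), with an unadjusted p of 0.0081 and an adjusted p of 0.256 in edgeR. It stayed negative in every setting tried, between -0.65 and -0.44 when single mice were left out and -0.89 with library totals only. The summed markers of stem and of dividing cells, given below, were also lower on the zinc deficient diet. The sums did not overlap between diets, although most of the single markers did. The part of these cells in the Foxa2 value was not tested. Foxa1, a close relative with a similar DNA-binding domain, is on the list of identity factors described below and was not called either. Its log2 fold change was 0.19 (adjusted p = 0.740, edgeR), the opposite sign to Foxa2, but it was fitted lower with library totals.

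**Figure D2:**
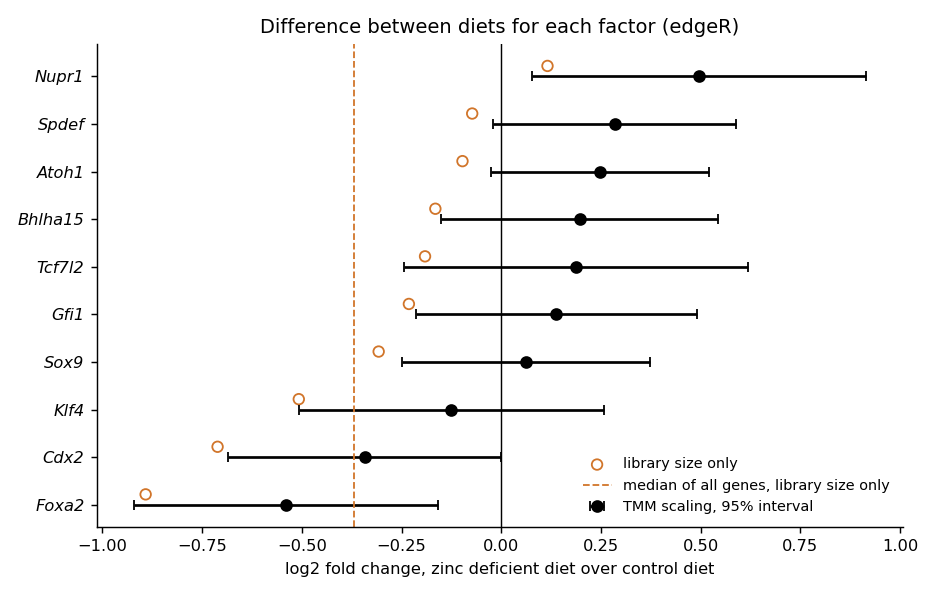
Log2 fold change of the zinc deficient diet over the control diet (horizontal axis) for the 10 factors, with black points and bars for the edgeR estimate and its 95% interval under TMM scaling, open orange circles for scaling by library totals only, and a dashed line for the median of all genes under that scaling. The intervals of Nupr1 (0.08 to 0.92) and Foxa2 (-0.92 to -0.16) do not include 0 before adjustment, and the circles all lie to the left of the points.

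The 10 factors were expressed at very different levels. Levels between genes were compared per kilobase of summed exon length. Nupr1 was the highest with 95.3 ± 28.1 TMM-scaled CPM per kilobase (SD, n = 8 mice), followed by Bhlha15 with 68.4 ± 10.9, Spdef with 39.3 ± 6.51, Atoh1 with 32.9 ± 3.59 and Sox9 with 20.9 ± 2.704. Below them came Cdx2 with 13.4 ± 2.52, Klf4 with 10.3 ± 2.13, Foxa2 with 5.27 ± 1.39, Gfi1 with 4.91 ± 0.616 and Tcf7l2 with 1.37 ± 0.304. The median gene tested had 1.66 on this scale, so that Tcf7l2 alone lay below it and the 5 leading factors lay above 95.5% of the genes or more.

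Most neighbours in this order were ordered alike in all 8 mice. The exceptions were Nupr1 over Bhlha15, which held in 6 of 8 mice, Cdx2 over Klf4 in 7 and Foxa2 over Gfi1 in 5. The mean log2 difference of the last pair, 0.07 with an SD of 0.46, was well inside the spread between mice. The factors that act early or late in the secretory programme were not separated by level, since Atoh1 and Spdef stood next to each other while Gfi1, a target of Atoh1, was 6.71-fold lower per kilobase than Atoh1. For Tcf7l2 the summed exon length of 8961 bases covers many alternative exons, and with the longest transcript as the length its level was 2.91 per kilobase, above the median gene.

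**Figure D3:**
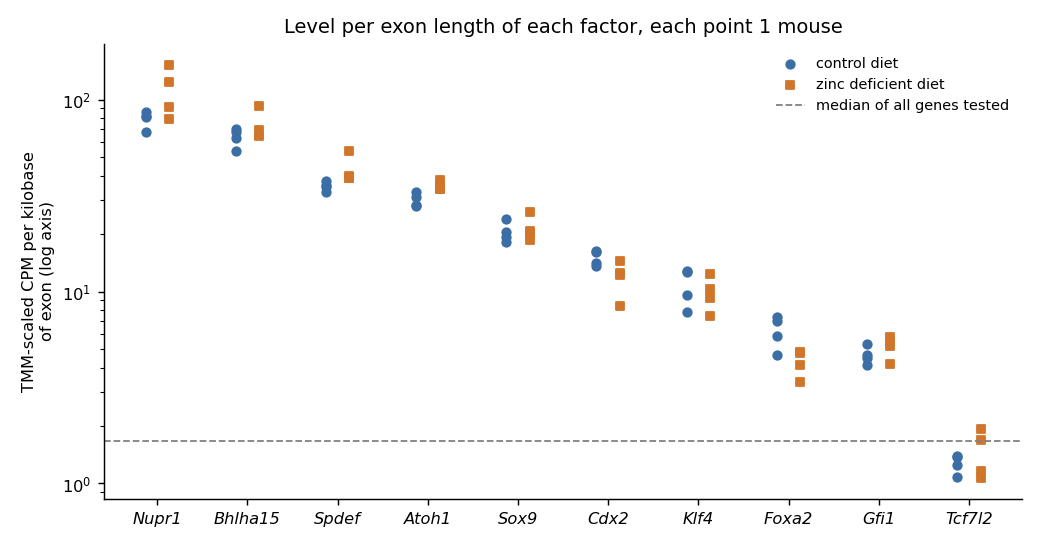
TMM-scaled CPM per kilobase of exon (vertical log axis) of the 10 factors in order of their mean, with 1 point a mouse, blue circles for the control diet, orange squares for the zinc deficient diet, and a dashed line at the median of all genes tested (1.66). Nupr1 and Bhlha15 lead, and Tcf7l2 is the factor nearest to the median gene.

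Other regulators of the same cells give a scale for these levels. Atf4, the stress-response activator upstream of Nupr1, had 74.6 TMM-scaled CPM per kilobase. Foxa3, a relative of Foxa2, had 41.9, and thus lay far above Foxa2 itself. Cdx1, the relative of Cdx2, had 39.5 and lay above Cdx2. Xbp1, the effector of the unfolded protein response, had 33.97, next to Atoh1. In contrast, Hes1, the Notch effector that represses Atoh1, had 2.71.

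The proteins of the canonical transcripts are 80 residues (Nupr1) to 581 residues (Tcf7l2) long. A C2H2 zinc finger pattern, 2 cysteines and 2 histidines within set ranges of spacing, was found in 2 of the 10, with 6 in Gfi1 and 3 in Klf4. In a zinc finger these residues hold a zinc ion, which a match of letters does not show. Of the 10547 proteins searched, 4.62% had such a pattern. Neither zinc finger factor passed the test between diets, and each had overlapping values.

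The factors were compared with each other across the 8 mice, as 45 pairs of log2 TMM-scaled CPM with exact two-sided permutation tests over all 40320 orders. A single pair passed Benjamini-Hochberg adjustment, Spdef and Cdx2, with Pearson's r of -0.97 (p = 0.000719, adjusted p = 0.0324). Mice with more Spdef had less Cdx2. Spearman's rho was -0.86 (p = 0.0107, adjusted p = 0.231), so the rank correlation did not pass. The relation was -0.82 without control mouse 2 and zinc deficient mouse 4, the mice farthest from the median of Spdef. It was -0.91 within the control mice and -0.96 within the zinc deficient mice, 4 mice each and too few for a test, and -0.95 over the 8 mice with the diet means removed, given without a test. With CPM by library totals the sign turned, to 0.43. On that scale all 45 pairs were positive, with a median r of 0.66, whereas 22 of 45 were positive after TMM scaling, so a correlation between factors depends on how the libraries are scaled.

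**Figure D4:**
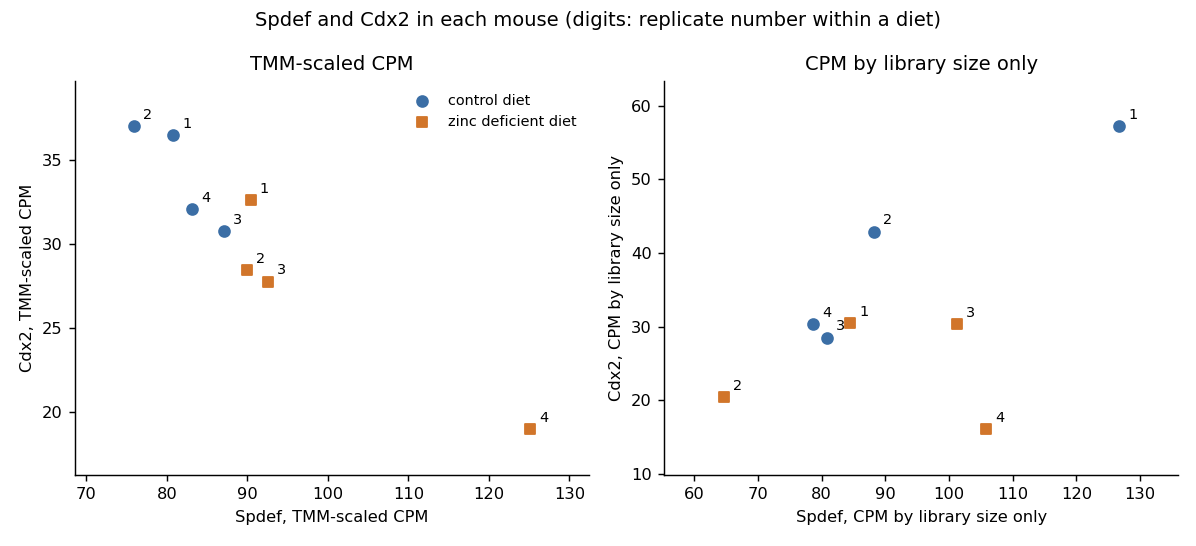
Cdx2 (vertical axis) against Spdef (horizontal axis) in the 8 mice, in TMM-scaled CPM (left) and in CPM by library totals (right), with blue circles for the control diet, orange squares for the zinc deficient diet and digits for the replicate number. The points fall along a descending line on the left (r = -0.97 on log2 values), with zinc deficient mouse 4 at the lower right end, and scatter upwards on the right (r = 0.43).

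Other pairs with Atoh1 did not pass adjustment. Atoh1 went with Spdef (r = 0.76, rho = 0.91, permutation p = 0.0096 and 0.0046, adjusted p = 0.139 and 0.205) and with Bhlha15 (r = 0.77, rho = 0.69, permutation p = 0.0128 and 0.0694, adjusted p = 0.139 and 0.625). Its r with Cdx2 was -0.77 (rho = -0.83, permutation p = 0.0139 and 0.0154, adjusted p = 0.139 and 0.231). The r of Atoh1 and Spdef was 0.90 without control mice 1 and 4, those farthest from the median of Atoh1, and 0.50 with the diet means removed. Without the same mice the r of Atoh1 was 0.65 with Bhlha15 and -0.89 with Cdx2. With the diet means removed it was 0.78 with Bhlha15 and -0.56 with Cdx2, given without a test.

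For each factor the 3 genes with the most similar pattern over the 8 mice were taken from all genes tested, for factors whose mean reached 1 CPM (all 10), as a description of 8 points. Spdef was most like Tuba4a (r = 0.96), an alpha tubulin, Tmed9, a cargo receptor of the early secretory pathway, and Gpx2, a glutathione peroxidase of the gut epithelium. Like Spdef, Gpx2 had its highest value in zinc deficient mouse 4, at 382.0 TMM-scaled CPM against 89.0 to 173.0 in the 7 other mice. Nupr1 was most like Fut8 (0.98), the core fucosyltransferase, Tifa, an adaptor of innate immune signalling, and Gcnt3, a mucin-type glycosyltransferase. Tifa, too, was highest in zinc deficient mice 1 and 2, with at least 92.4 TMM-scaled CPM against 49.4 to 67.0 in the other mice. Atoh1 was most like Tfpi2 (0.96), a serine protease inhibitor, Ubxn8 and Pnp, and Bhlha15 was most like Ubfd1 (0.97), S100a14 and Ago3.

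Among the remaining factors, Cdx2 was most like A430033K04Rik (0.99), Parp16 and Pxylp1, and Foxa2 was most like Prelp (0.94), Susd6 and Slc3a1, which encodes a subunit of an amino acid transporter. Prelp, an extracellular matrix protein, had 10.3 to 20.8 TMM-scaled CPM in the control mice and 5.05 to 6.94 in the zinc deficient mice. Gfi1 went with Smim31 (0.97), Zfp655 and Cfap20, and Sox9 with Arhgef2 (0.97), Grin1os and Cep43. Klf4 went with Arid2 (0.97), Arhgef11 and Arhgef38, and Tcf7l2 with Rassf3 (0.92), Inpp5k and Mapk1ip1. The best match of each of the 10 factors thus had an r of at least 0.92, which is easily reached over 8 points when so many genes are compared.

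Around the 10 factors, 91 partners, targets and other lineage factors were listed in 12 groups, with earlier results of these data known. Of the 91 genes, 78 passed the filter. The test called 3 of them, all lower on the zinc deficient diet, where 0.257% of all genes were called lower. These were Sp5, Cd44 and Sox4. DESeq2 called 5, the same 3 with Hes1 and Ccnd2, where it called 1.34% of all genes. In edgeR 18 of the 78 had an unadjusted p under 0.05, where 10.5% of all genes did, and 17 of them were lower, where 6.04% of all genes were. With library totals as the only scaling all 3 were still fitted lower, but 0 of the 78 were called.

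Sp5, a Wnt-induced zinc finger factor, had 4.48, 3.53, 3.91 and 5.29 TMM-scaled CPM in the control mice and 1.73, 1.26, 1.44 and 1.40 in the zinc deficient mice. The log2 fold change was -1.55 (standard error 0.31, adjusted p = 0.0376, edgeR), and no value of a diet overlapped the other. Cd44, a hyaluronan receptor under Wnt control, had 11.5, 12.1, 9.33 and 13.8 in the control mice and 5.50, 5.30, 6.78 and 5.42 in the zinc deficient mice. Its log2 fold change was -1.02 (standard error 0.20, adjusted p = 0.0343, edgeR). Sox4, an HMG box factor of secretory progenitors and tuft cells, had 24.4, 21.6, 21.1 and 23.8 against 13.2, 11.4, 16.1 and 13.3. Its log2 fold change was -0.75 (standard error 0.16, adjusted p = 0.0484, edgeR). The calls lay close to the threshold. Of the 3, Cd44 alone passed with the replicate number as a block (adjusted p = 0.0528 for Sp5 and Sox4) and without the robust option of edgeR (0.0502 for Sp5 and 0.0537 for Sox4), and with DESeq2 size factors Sox4 did not pass (0.0541). Without 1 mouse the adjusted p of Sox4 was under the threshold only when zinc deficient mouse 3 was left out (0.0472, and 0.0676 to 0.171 for the other mice), that of Sp5 was above it for every mouse left out (0.0556 to 0.144), and that of Cd44 was above it for 5 of the 8 mice (0.0384 to 0.147 over the 8).

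**Figure D5:**
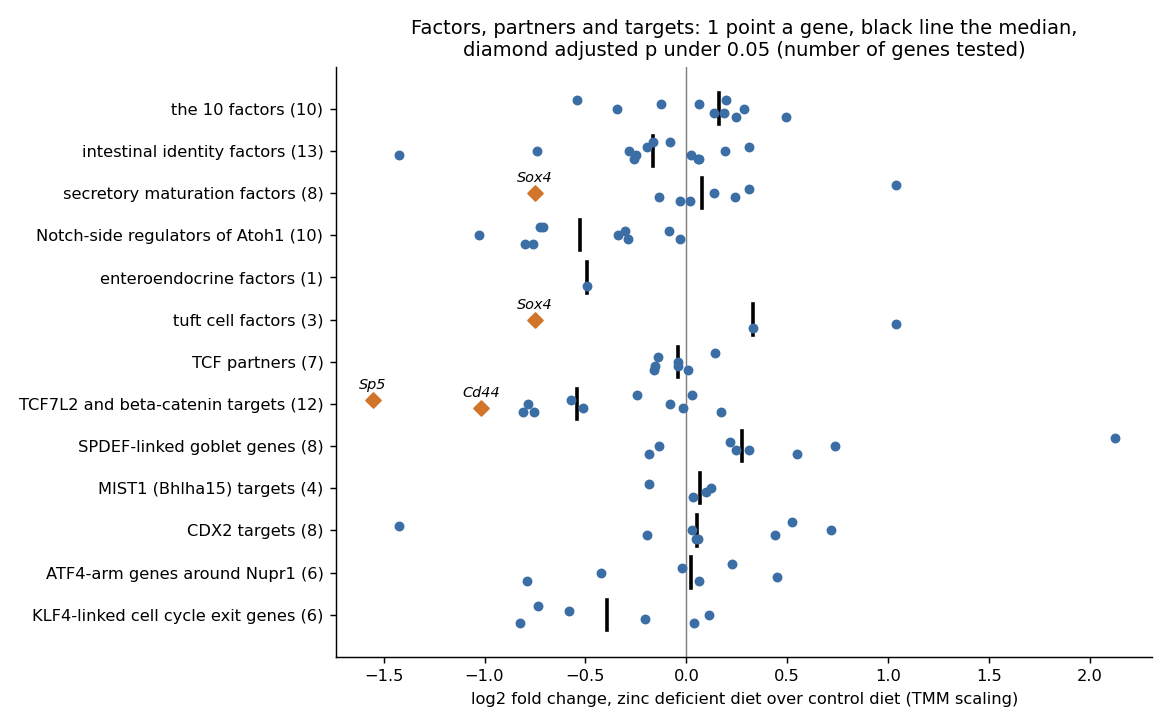
Log2 fold change of the zinc deficient diet over the control diet under TMM scaling (horizontal axis) for the 10 factors and the 12 groups around them, with 1 point a gene, black lines for group medians, orange diamonds for genes with an adjusted p under 0.05 and the number of genes tested in brackets. The Notch-side regulators (median -0.53) and the TCF7L2 and beta-catenin targets (median -0.54) lie mostly to the left of 0, and the 10 factors (median 0.16) on both sides.

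Downstream of Tcf7l2, 10 of 12 targets of TCF7L2 and beta-catenin were fitted lower and 2 were called (Sp5 and Cd44). The median log2 fold change was -0.54 beside -0.0052 over all genes. In edgeR 7 of the 12 had an unadjusted p under 0.05, all lower, beside 6.04% of all genes. With library totals all 12 were fitted lower, and with DESeq2 size factors 9 were. The 2 targets with the highest CPM, not divided by length, Ephb3 (0.17, adjusted p = 0.768, edgeR) and Ephb2 (-0.25, adjusted p = 0.593), which position cells along the crypt, were not called. Ephb3 was fitted lower with library totals (-0.21). Of the 9 partners of TCF factors, 7 were tested and 0 were called by edgeR, 0 of them with an unadjusted p under 0.05 and 0 by DESeq2. Beta-catenin itself (Ctnnb1) had 285.0 ± 9.10 TMM-scaled CPM in the control mice and 255.2 ± 20.1 in the zinc deficient mice (SD, n = 4 each), with a log2 fold change of -0.16. Ctbp1, a corepressor, had one of 0.0069 and Tle3, a Groucho corepressor, one of -0.16.

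In the group listed as Notch-side regulators, not all of which act ahead of Atoh1, all 10 genes were fitted lower under TMM scaling and with library totals. The median log2 fold change under TMM scaling was -0.53. Without control mouse 3 or without zinc deficient mouse 4, 8 of the 10 were fitted lower. Of the 10, 0 were called by edgeR and 1 by DESeq2, and 3 had an unadjusted p under 0.05 in edgeR. Hes1, the Notch effector, had 11.2, 10.2, 11.5 and 13.5 TMM-scaled CPM in the control mice and 8.42, 7.45, 4.95 and 5.89 in the zinc deficient mice. The values did not overlap, and the log2 fold change of -0.80 (standard error 0.21) had an adjusted p of 0.105 in edgeR and of 0.0435 in DESeq2. Id1, an inhibitor of helix-loop-helix factors, had a log2 fold change of -1.03 (adjusted p = 0.256, edgeR), with values of 4.26 to 6.15 against 1.22 to 4.32. Dll4, a Notch ligand that Paneth cells present to stem cells, had -0.30 (adjusted p = 0.641), and Hes6, which counters Hes1, had -0.03 (adjusted p = 0.963).

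Markers of stem and dividing cells moved in the same direction as the Notch-side regulators and the targets of TCF7L2 and beta-catenin. The 5 stem cell markers summed to 1568 to 2163 TMM-scaled CPM in the control mice and to 709.5 to 1329 in the zinc deficient mice. Most of this sum was Olfm4, with 1135 to 1715 in the control mice and 442.6 to 956.1 in the zinc deficient mice. The 6 proliferation markers summed to 109.7 to 130.6 and to 66.8 to 85.2, and none of the markers was at 0 in all mice. Taken singly, 2 of the 5 stem cell markers and 1 of the 6 proliferation markers did not overlap between diets, all lower. Of all genes, 6.09% did not overlap. At an unadjusted p under 0.05 were 4 of the 5 stem cell markers and 5 of the 6 proliferation markers, all of them lower, beside 6.04% of all genes. Top2a, the topoisomerase of dividing cells, was called lower. It had 44.5, 40.9, 29.5 and 39.8 TMM-scaled CPM in control mice 1 to 4 and 20.1, 10.5, 23.1 and 14.5 in zinc deficient mice 1 to 4, so that the diets did not overlap, with a log2 fold change of -1.18 (adjusted p = 0.0229, edgeR). Of the 6 proliferation markers, 0 were called by edgeR with library totals as the only scaling or without control mouse 2, control mouse 4, zinc deficient mouse 2 or zinc deficient mouse 4. Lgr5 and Ascl2 are on the stem cell list and on the list of TCF7L2 targets. The part of these cells in the lower values of Sp5, Cd44, Sox4, Hes1, Cdx2 and Foxa2 was not tested. Enterocyte markers summed to 17.5 to 149.5 and to 22.5 to 129.6 TMM-scaled CPM, those of enteroendocrine cells to 9.203 to 17.3 and to 0.842 to 11.8 (2 of 6 markers tested), and of the 6 immune cell markers 1 was tested.

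Among the other groups, the 13 factors of intestinal identity included 0 called by edgeR, 0 by DESeq2 and 2 with an unadjusted p under 0.05 in edgeR, both lower. Of the 13, 8 were fitted lower, and all 13 with library totals. Isx, a target of Cdx2, had a log2 fold change of -1.42 (adjusted p = 0.451, edgeR) with as little as 1 count in a mouse. Hnf4a, the nuclear receptor of enterocyte genes, had -0.19 and Elf3, an epithelial ETS factor, 0.06, each with overlapping values, and Elf3 was fitted lower with library totals (-0.29). Of the 8 targets of Cdx2, 0 were called by edgeR or DESeq2 and 2 had an unadjusted p under 0.05 in edgeR. In the main fit 6 of the 8 were fitted higher, the opposite sign to Cdx2. That count was not stable, since 5 were fitted lower with library totals and 6 were fitted lower without zinc deficient mouse 3. Mep1a, a meprin of the brush border, had a log2 fold change of 0.72 (adjusted p = 0.370) and Lgals4, a galectin, 0.03, which was -0.24 with library totals.

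The 8 factors of secretory maturation included 1 called gene, Sox4, and 5 of the 8 were fitted higher, but 1 with library totals. Xbp1 had 238.1 ± 24.8 TMM-scaled CPM on the control diet and 232.8 ± 5.36 on the zinc deficient diet (SD, n = 4 each) and Ets2 had 151.2 ± 5.71 and 153.1 ± 5.604, with overlapping values for both. Spib, a factor of tuft and microfold cells, ranged from 1.39 to 47.3 and was highest in zinc deficient mouse 3, the mouse with the highest tuft cell markers. Its log2 fold change of 1.04 was -0.56 without that mouse. Of the 10 enteroendocrine factors, only Nkx2-2 passed the filter (-0.49, adjusted p = 0.490, edgeR), and 3 had at most 3 counts in every mouse.

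Of the 8 goblet cell genes linked to Spdef, 6 were fitted higher, but 3 with library totals. Of the 8, 0 were called by edgeR, with 0 at an unadjusted p under 0.05, and 0 by DESeq2. Agr2, a disulfide isomerase of mucin folding, had a log2 fold change of 0.55 (95% interval -0.05 to 1.14). Muc2, the main gel-forming mucin, had 0.74 (-0.63 to 2.10), Clca1 had 2.13 (-0.51 to 4.77) and Spink4 had 0.22 (-0.44 to 0.87). These wide intervals reflect the spread between mice, as Muc2 ranged from 319.8 to 2433 TMM-scaled CPM within the zinc deficient diet. Both Muc2 and Clca1 were highest in zinc deficient mouse 4, as Spdef was, whereas Fcgbp was lowest there and ranged from 111.4 to 842.4 within that diet.

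Of the 5 listed targets of MIST1, 4 were tested and 0 were called by edgeR or DESeq2, with 0 at an unadjusted p under 0.05. They had log2 fold changes of 0.03 for Rab3d, a small GTPase of secretory granules, 0.10 for Copz2, 0.12 for Gjb1 and -0.19 for Atp2c2, a calcium pump of the secretory pathway. With library totals all 4 were negative. The 6 genes of the ATF4 arm, which is known to induce Nupr1, were split, 3 fitted higher and 3 lower, and 0 were called by edgeR or DESeq2, with 1 at an unadjusted p under 0.05 in edgeR. With library totals 5 were lower. Atf4 had a log2 fold change of 0.06 and Asns, asparagine synthetase, one of 0.23 (95% interval -0.10 to 0.56), both negative with library totals. Ddit3, which encodes CHOP, had 0.45 with at most 53 counts in a mouse. Sesn2, a sensor of leucine, had -0.79 (unadjusted p = 0.00305, adjusted p = 0.183, edgeR), the opposite sign to Nupr1.

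The list of cell cycle exit genes linked to Klf4 holds cyclins as well as inhibitors of the cycle. Of its 6 genes, 0 were called by edgeR and 1 by DESeq2. In edgeR 3 had an unadjusted p under 0.05, all of them cyclins and all lower. Of the 6, 4 were fitted lower, and all 6 with library totals. Cdkn1a, which encodes the inhibitor p21, had a log2 fold change of 0.04 and Cdkn1b, which encodes p27, one of -0.20. Ccnd2, a cyclin, had 35.4 ± 6.84 TMM-scaled CPM on the control diet and 21.3 ± 4.68 on the zinc deficient diet (SD, n = 4 each), with a log2 fold change of -0.74 (adjusted p = 0.0882 in edgeR and 0.0302 in DESeq2). Ccnb1 is also one of the proliferation markers and had -0.82 (adjusted p = 0.417).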

How the data were processed

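RNA was isolated from FACS-sorted Paneth cells of each mouse, and libraries were made with a stranded mRNA kit. The table that the authors deposited holds raw counts, whole numbers for every Ensembl gene. Per the submitters' processing notes, FastQC 0.12.0, STAR 2.7.0a, DESeq2 and the build mm39 were used. The counting program, its strand setting and its handling of reads with several matches can all change a count, and the sources used here give none of them. Columns of the table were matched to samples by diet and number, since the labels and the headers shorten the diet differently, and 0 columns were unmapped. Of the 55414 identifiers, 54749 were found in GENCODE M39 (GRCm39), which gave names, positions and exon lengths.

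The test between diets was that of edgeR 4.0.16 under R 4.3.3 (TMM factors, the filterByExpr filter, robust quasi-likelihood test, Benjamini-Hochberg adjustment, threshold 0.05), fitted on all genes that passed. The p-values of this test set the difference between diets against the spread between the 4 mice of a diet, moderated by that of other genes. CPM are per 1000000 counts after TMM scaling, and log2 values for correlations and likeness used a prior count of 2. The floor was set at 3 counts, which are 0.237 to 0.351 CPM by library size. Poisson intervals cover counting error only. Alternatives were DESeq2 1.42.0 (size factors and Wald test), library totals, TMM without the Defa genes, no filter, no robust option, the replicate number as a block, each mouse left out, and the longest transcript as length. No libraries were duplicates (chi-square per degree of freedom of 5.43 to 55.1 between mice of a diet). The edgeR step was tested on simulated data. Python 3.11.15, numpy 2.4.6, scipy 1.17.1, pandas 2.3.3 and matplotlib 3.10.9 were used.

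Of each group around the factors, the text names the genes called, the 2 with the largest log2 fold change and the 2 with the highest mean CPM, and of each factor the 3 genes most like it. Foxa1, Foxa3, Cdx1, Lgr5, Ascl2, Olfm4, Tecpr1, Fcgbp, Zg16, Tff3, Top2a, Ang4 and Mptx2 are named outside this rule, after their values were seen. The values of 1 listed gene are not reported here, although it stays in the counts of its list. The 10 factors and the lists of 91 other genes and of markers were chosen with earlier results of these data known.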

Additional observations from a re-analysis of the deposited data

Results flagged for a closer look

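In 42 groups of 4 mice, namely the values of the factors, of the called genes around them and of the summed markers by diet, 3 held a mouse that lay far from the other 3. Chance leaves about 1 in 20 groups with such a mouse. Spdef had 125.1 TMM-scaled CPM in zinc deficient mouse 4, and the other mice of that diet had 89.9 to 92.5. Cd44 had 6.78 in zinc deficient mouse 3 against 5.30 to 5.50, and this mouse was the one nearest to the control mice. The 5 tuft cell markers summed to 350.4 TMM-scaled CPM in zinc deficient mouse 3 against 19.2 to 59.6 in the other mice of that diet.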

How the results depend on the processing

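No factor was called under any of the 15 other settings, and 143 of their 150 refitted differences kept their sign. With library totals as the only scaling, 6 factors turned from higher to lower, with log2 fold changes of -0.097 for Atoh1, -0.23 for Gfi1, -0.073 for Spdef, -0.31 for Sox9, -0.17 for Bhlha15 and -0.19 for Tcf7l2. When 1 mouse was left out, Sox9 ranged from -0.041 to 0.15, and no other factor changed sign. The number of genes called was 11 with library totals, 251 with no expression filter, 146 with DESeq2, 25 with no robust option and 8 to 36 when 1 mouse was left out. Of the 91 genes around the factors, 0 were called with library totals, 7 with no expression filter, 5 with DESeq2, 1 with no robust option and 0 to 3 when 1 mouse was left out. Without the filter, 18839 genes were tested and the unadjusted p-values of edgeR changed as well. That of Foxa2 went from 0.0081 to 0.0037 and that of Atoh1 from 0.073 to 0.127. For none of these settings was the cause of the difference tested. With the longest transcript as length, the level per kilobase was 149.1 for Nupr1, 47.1 for Spdef and 2.91 for Tcf7l2.

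Among the genes named from the groups by the rule above, those fitted higher that turned lower with library totals were Elf3 (-0.29), Ets2 (-0.35), Ctbp1 (-0.35), Ephb3 (-0.21), Spink4 (-0.071), Rab3d (-0.31), Copz2 (-0.26), Gjb1 (-0.22), Lgals4 (-0.24), Atf4 (-0.32), Asns (-0.14) and Cdkn1a (-0.33). When 1 mouse was left out, the sign also changed within the ranges of Elf3 (-0.055 to 0.15), Xbp1 (-0.086 to 0.017), Ets2 (-0.0065 to 0.0396), Hes6 (-0.11 to 0.034), Ctbp1 (-0.026 to 0.048), Spink4 (-0.0014 to 0.41), Rab3d (-0.016 to 0.11), Copz2 (-0.02985 to 0.21), Gjb1 (-0.0056 to 0.195), Lgals4 (-0.22 to 0.13), Atf4 (-0.022 to 0.12), Cdkn1a (-0.049 to 0.14) and Spib (-0.56 to 1.75). Lgals4 was -0.009975 with the replicate block.

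The labels give both diets the numbers 1 to 4. Deviations of same-numbered mice from their diet means had correlations of 0.0254 to 0.09 over the genes tested. Values for mice of different numbers are not given, so whether the number stands for a pairing cannot be told. A fit with the replicate number as a block called 53 genes, 36 of the 44 among them, 0 factors and 2 of the 91 genes around them, Cd44 and Axin2. Depth limited the low genes most, with as little as 1 count in a mouse for Isx and 8 for Ccnb1.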
